A study of Homo sapiens with 16 samples.

Results

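MYC and the genes that encode its dimerisation partners and competitors were followed in LNCaP, an androgen-responsive cell line from a human prostate cancer. The members were the rows of the deposited expression table for MYC, MYCN, MYCL, MAX, MXD1, MXD3, MXD4, MXI1, MNT and MLX, which is 10 of the 60642 gene symbols in the table. The cells were grown for 72 h with 5% fetal bovine serum and then for 48 h with 5% serum depleted of androgen by charcoal, so that all groups were compared after androgen depletion. Treatment lasted 48 h, with or without the androgen dihydrotestosterone (DHT) at 10 nM. Either state was also combined with an antagonist of the androgen receptor at 10 µM, which was apalutamide (APA), bicalutamide (BIC) or enzalutamide (ENZ). Controls received both solvents, ethanol and DMSO (VEH). The 8 groups were VEH and DHT without an antagonist, APA.VEH, BIC.VEH and ENZ.VEH with an antagonist alone, and APA.DHT, BIC.DHT and ENZ.DHT with both. They had 2 replicates each, labelled as biological replicates, which gave 16 libraries of a single cell line.

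MYC is a transcription factor that binds DNA only as a dimer with MAX, and these dimers activate genes of ribosome production, nucleotide synthesis and cell growth. The MXD proteins, among them MXI1, and MNT also pair with MAX, bind the same E-box sequence and recruit co-repressors, so the balance between MYC and these competitors is a known feature of the network. MLX is a MAX-like protein that pairs with MondoA (MLXIP), ChREBP (MLXIPL) and some MXD proteins and links the network to glucose-responsive genes. MYC is often overexpressed in prostate cancer, and its transcript has been linked to androgen receptor signalling in both directions.

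Levels were given as TPM (a transcript's share of the library, corrected for its length), so genes can be set side by side. Changes were computed on log2(TPM + 1), which understates the change of a gene with low TPM. A gene was called when limma's moderated test gave a Benjamini-Hochberg adjusted p under 0.05 among the 16636 genes that reached 1 TPM in 2 or more libraries. MYCN did not reach it, so 9 of the 10 members were tested. Because libraries with the same replicate number deviated together, values from a fit with the replicate number as a block are given wherever that fit changed a call. In bulk RNA, a lower level can come from fewer cells that carry a transcript or from less of it per cell, and the data cannot tell these apart.

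KLK3 and TMPRSS2, the standard androgen receptor targets, rose with DHT by 6.42 and 3.15 on the log2 scale (limma, adjusted p = 0.00016 and 0.00017), the direction the labels call for. Luminal markers of the prostate were expressed in every library, while PTPRC, the leukocyte marker, lay between 0 and 0.1 TPM. Replicates of ENZ.DHT and APA.DHT were the least alike. Their correlation across genes was 0.964 in each, against 0.974 to 0.982 in the other groups, and 5.71% and 6.17% of tested genes differed more than 2-fold between their replicates, against 2.45% to 3.97% elsewhere.

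MYC was among the more abundant members and did not respond detectably to DHT. It stood at 69.6 and 106 TPM in VEH replicates 1 and 2, and at 62.4 and 132 TPM in DHT. The DHT replicates therefore lay on either side of both VEH libraries. The difference between DHT and VEH was 0.08 on the log2 scale (SE 0.57, 95% interval -1.17 to 1.33, limma adjusted p = 0.95). With the replicate block it was the same size with an interval of -0.22 to 0.39 (SE 0.14, adjusted p = 0.70), which leaves room for a change of about that size either way. Its direction depended on 1 library: it was -0.45 without DHT replicate 2 and 0.62 without DHT replicate 1.

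In the antagonist groups without DHT, MYC measured 63.9 and 115 TPM in BIC.VEH. It measured 45.7 and 111 TPM in ENZ.VEH, and 52.7 and 101 TPM in APA.VEH. With DHT added it was at 72.9 and 119 TPM in BIC.DHT, 49.4 and 98.6 TPM in ENZ.DHT and 52.2 and 102 TPM in APA.DHT. The replicate ranges of all 8 groups overlapped one another. Ordered by their means, the groups ran from DHT (97.4 TPM ± 49.5, SD, n = 2) through BIC.DHT (96.0), BIC.VEH (89.3), VEH (87.7), ENZ.VEH (78.5), APA.DHT (77.2) and APA.VEH (76.9) down to ENZ.DHT (74.0 ± 34.8). No neighbours in that order differed by more than their spread. Against DHT, MYC was 0.38 lower in ENZ.DHT on the log2 scale and 0.31 lower in APA.DHT, neither of which was called (limma, adjusted p = 0.70 and 0.77, and 0.062 and 0.12 with the block). Both differences turned positive without DHT replicate 2, to 0.16 and 0.22.

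**Figure D1:**
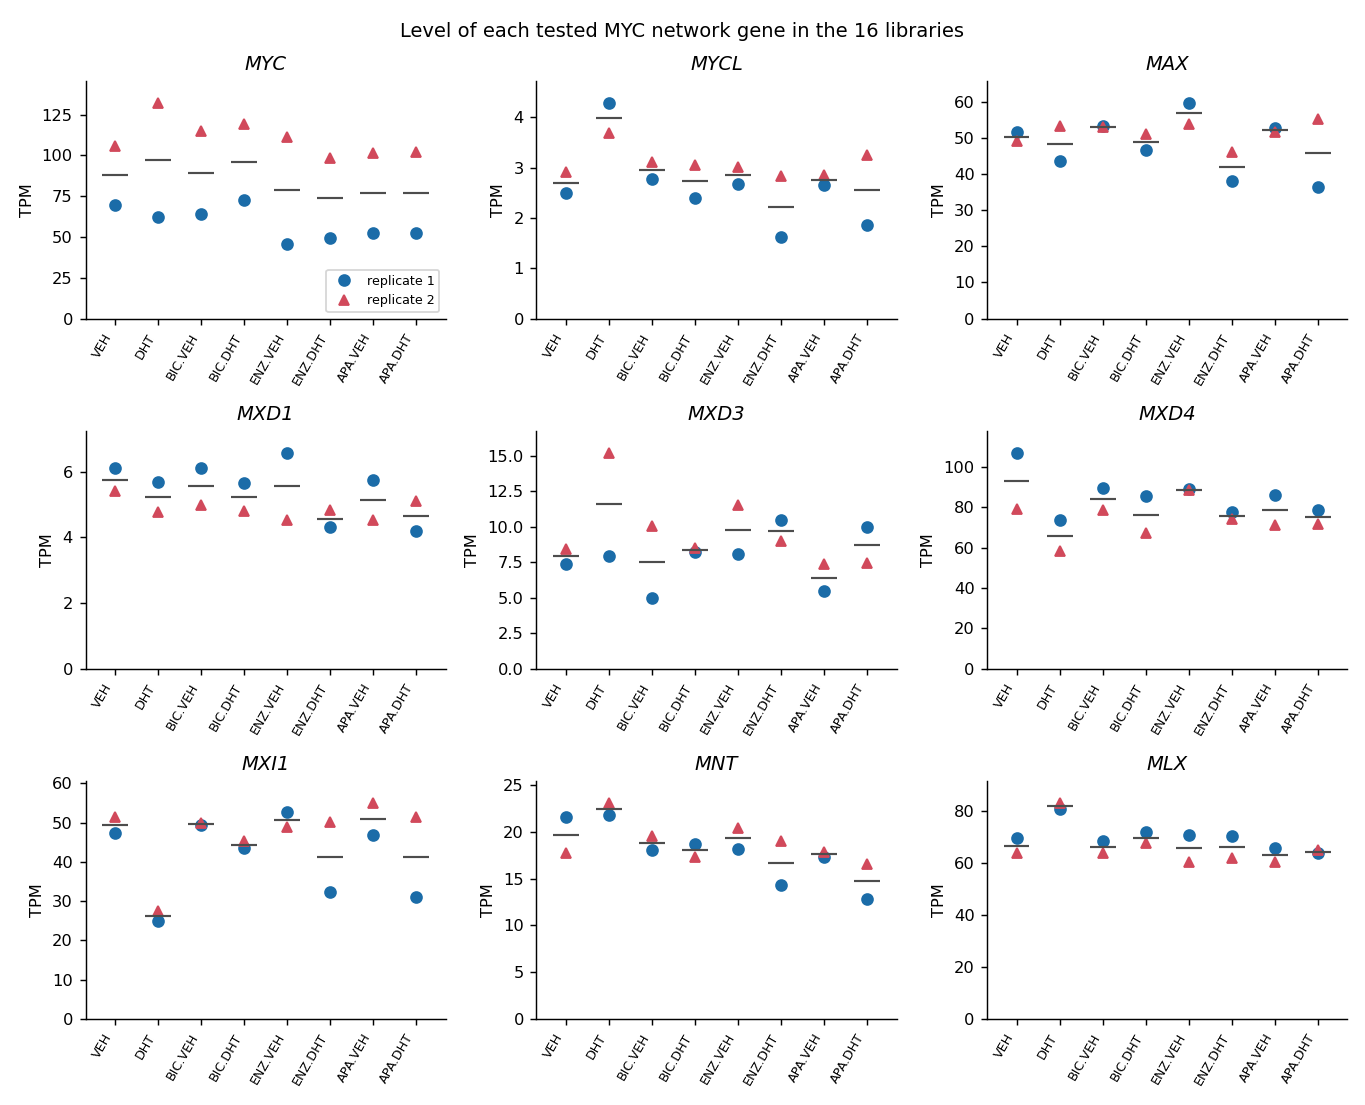
Level in TPM (vertical axes, from 0) of the 9 tested genes in each of the 8 groups, with replicate 1 as circles, replicate 2 as triangles and the group mean as a bar. MYC replicate 2 lies above replicate 1 in all 8 groups, and both MXI1 libraries of DHT, at 25.0 and 27.3 TPM, lie below the other 14.

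What separated the MYC values was the replicate number. Replicate 2 was higher than replicate 1 in 8 of 8 groups, by 0.60 on the log2 scale in VEH at the least and 1.27 in ENZ.VEH at the most. All replicate 1 values lay between 45.7 and 72.9 TPM and all replicate 2 values between 98.6 and 132 TPM. The fitted difference was 0.92 (SE 0.07, 95% interval 0.77 to 1.07), or 1.89-fold (limma with replicate block, adjusted p = 8.2e-06). This comparison was added after the values were seen. Libraries with the same number deviated together, so the SE and p describe agreement over the 8 groups. They do not measure variation between independent cultures, here or in the later comparisons of replicates. Many genes differed in this way: 23.4% of tested genes were called higher in replicate 2 and 16.9% lower, and 17.8% were higher in replicate 2 in all 8 groups. By the size of the rise MYC ranked 255 of 16636. In the sample titles all replicate 1 libraries share a numeric code, and all replicate 2 libraries share another. The labels do not say what the codes stand for or what distinguishes the replicates.

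Among the other members, MXD4 was lower in replicate 2 by 0.22 (SE 0.05, limma with replicate block, adjusted p = 0.0087), with replicate 2 the lower in 8 of 8 groups, which was true of 10.4% of genes. The remaining 7 tested members were not called by replicate. Their differences ran from -0.15 for MXD1 to 0.27 for MXD3, with the higher replicate varying between groups.

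**Figure D2:**
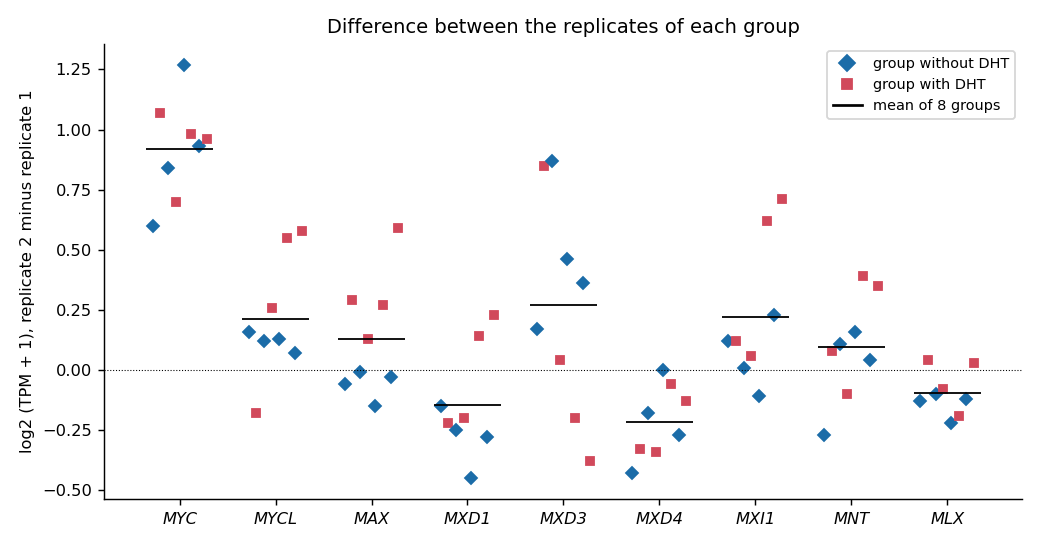
Difference in log2(TPM + 1) between replicate 2 and replicate 1 (vertical axis) for the 9 tested genes, with 1 point per group (diamonds without DHT, squares with DHT) and a bar at the mean of the 8 groups. The 8 points of MYC run from 0.60 to 1.27 and none reaches 0, while those of MXD4 are at or below 0 and those of the other genes fall on both sides of it.

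Of its paralogues, MYCN was listed at 0 TPM in 15 libraries and at 0.03 TPM in ENZ.VEH replicate 1. MYCL, a shorter relative of MYC that is also a MAX partner, was low, between 1.62 and 4.29 TPM. It was at 2.49 and 2.91 TPM in VEH and at 4.29 and 3.68 TPM in DHT, so the DHT libraries lay above all other 14. The difference of 0.43 was not called (SE 0.23, limma adjusted p = 0.27, and 0.10 with the block).

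MYCL stood at 2.39 and 3.06 TPM in BIC.DHT. It was at 1.62 and 2.83 TPM in ENZ.DHT, and at 1.85 and 3.25 TPM in APA.DHT. Each pair lay below both DHT libraries, and replicate 1 of ENZ.DHT and of APA.DHT gave the lowest values. Against DHT the change was -0.65 in ENZ.DHT (SE 0.23, limma adjusted p = 0.099), which was called with the block (SE 0.18, adjusted p = 0.020). Leaving out replicate 2 of ENZ.DHT gave -0.93, and leaving out its replicate 1 gave -0.38. The changes of -0.52 in APA.DHT and -0.42 in BIC.DHT were not called in either fit. MYCL overlaps the antisense gene MYCL-AS1 in the RefSeq annotation (GRCh38.p14), and it was not stated whether reads were counted by strand.

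MAX, the shared partner, showed no called change. It was at 51.5 and 49.2 TPM in VEH and at 43.5 and 53.3 TPM in DHT, and the VEH values fell inside the DHT range (-0.06, SE 0.18, limma adjusted p = 0.87). The extremes of all libraries were 36.5 TPM in APA.DHT replicate 1 and 59.8 TPM in ENZ.VEH replicate 1. As a ratio of TPM, MYC to MAX ran from 0.766 to 1.56 in the replicate 1 libraries and from 1.85 to 2.48 in the replicate 2 libraries.

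MXI1, the MXD family member also known as MAX interactor 1, was the member with the largest response to DHT. Its level was 47.3 and 51.5 TPM in VEH and 25.0 and 27.3 TPM in DHT. Both DHT libraries lay below all other 14 libraries. The level fell to 0.54-fold, a log2 difference of -0.89 in each replicate (SE 0.23, 95% interval -1.40 to -0.39, limma adjusted p = 0.031). With the block the adjusted p was 0.0046. The call was lost when any 1 of the 4 libraries compared was left out (adjusted p up to 0.14), while the difference stayed between -0.95 and -0.83. It was also lost without the filter on low genes (adjusted p = 0.062) and when only the libraries of these 2 groups were fitted (0.060).

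In the antagonist groups without DHT, MXI1 ranged from 46.8 to 55.0 TPM over the 6 libraries. With DHT it was at 43.5 and 45.2 TPM in BIC.DHT, 32.3 and 50.1 TPM in ENZ.DHT, and 31.0 and 51.4 TPM in APA.DHT. All 6 exceeded the DHT libraries, but replicate 1 of ENZ.DHT and of APA.DHT sat nearer to DHT and replicate 2 within the range of the libraries without DHT. The rise against DHT was 0.74 in BIC.DHT, 0.60 in ENZ.DHT and 0.59 in APA.DHT (SE 0.23 each). None was called without the block (limma, adjusted p = 0.13, 0.13 and 0.14), and all 3 were called with it (SE 0.18, adjusted p = 0.024, 0.030 and 0.035). The 3 comparisons share the DHT libraries. The rise in ENZ.DHT was 0.29 without replicate 2 of that group and 0.91 without replicate 1, and in APA.DHT the corresponding values were 0.23 and 0.95. The interaction is the DHT effect in an antagonist's presence less that in its absence. It was 0.73 for BIC (95% interval 0.02 to 1.44), 0.56 for ENZ (-0.15 to 1.28) and 0.55 for APA (-0.16 to 1.27), and was called for none, against 0.986%, 1.63% and 1.42% of all genes (limma, adjusted p = 0.47, 0.53 and 0.52). With the block it was not called either (adjusted p = 0.13, 0.20 and 0.21), against 6.39%, 9.91% and 10.1% of all genes.

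MXD4, another member of the MXD family, was the most abundant of the competitors, at 107 and 79.0 TPM in VEH and at 73.7 and 58.2 TPM in DHT. Both DHT libraries were below both VEH libraries, and DHT replicate 2 was the lowest of all 16. The difference of -0.48 was not called without the block (SE 0.18, 95% interval -0.88 to -0.09, limma adjusted p = 0.12) and was called with it (SE 0.11, adjusted p = 0.0078). Leaving out VEH replicate 2 gave -0.70, and leaving out VEH replicate 1 gave -0.27. With an antagonist in addition to DHT, MXD4 lay between 67.0 and 85.4 TPM, and its rises against DHT of 0.21 in BIC.DHT, 0.21 in ENZ.DHT and 0.19 in APA.DHT were not called in either fit.

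MXD1 and MXD3, family members known from differentiating and from S-phase cells respectively, were low. MXD1 kept between 4.21 and 6.58 TPM (DHT minus VEH -0.12, limma adjusted p = 0.76). MXD3 measured 7.38 and 8.44 TPM in VEH and 7.97 and 15.2 TPM in DHT, the last being the highest of all 16 libraries. Its groups overlapped, and the difference of 0.44 was not called (SE 0.32, limma adjusted p = 0.44).

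MNT, the broadly expressed repressor partner of MAX, was at 21.6 and 17.7 TPM in VEH and at 21.8 and 23.1 TPM in DHT, a difference of 0.19 that was not called (limma, adjusted p = 0.52). With an antagonist and DHT it was at 18.7 and 17.4 TPM in BIC.DHT, 14.3 and 19.0 TPM in ENZ.DHT and 12.8 and 16.6 TPM in APA.DHT. All 6 values were below both DHT libraries, and the APA.DHT pair was the lowest by its mean. The fall in APA.DHT was -0.59 (SE 0.17, limma adjusted p = 0.053), and it was called with the block (adjusted p = 0.014). The fall of -0.42 in ENZ.DHT was called in neither fit (limma, adjusted p = 0.14, and 0.052 with the block), nor was that of -0.30 in BIC.DHT.

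MLX was at 69.5 and 63.6 TPM in VEH and at 80.8 and 83.0 TPM in DHT. The DHT libraries lay above all other 14, which ended at 71.7 TPM. The rise of 0.30 was not called without the block (SE 0.12, 95% interval 0.04 to 0.55, limma adjusted p = 0.14) and was called with it (SE 0.09, adjusted p = 0.027). MLX measured 71.7 and 67.6 TPM in BIC.DHT, 70.4 and 61.7 TPM in ENZ.DHT and 63.6 and 64.9 TPM in APA.DHT. These 6 values fell within or near the range of 60.2 to 70.8 TPM of the libraries without DHT. The falls against DHT were -0.31 in ENZ.DHT (limma, adjusted p = 0.13, and 0.022 with the block) and -0.35 in APA.DHT (0.097, and 0.014 with the block), whereas that of -0.23 in BIC.DHT was called in neither fit. MLX overlaps PSMC3IP in the annotation.

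**Figure D3:**
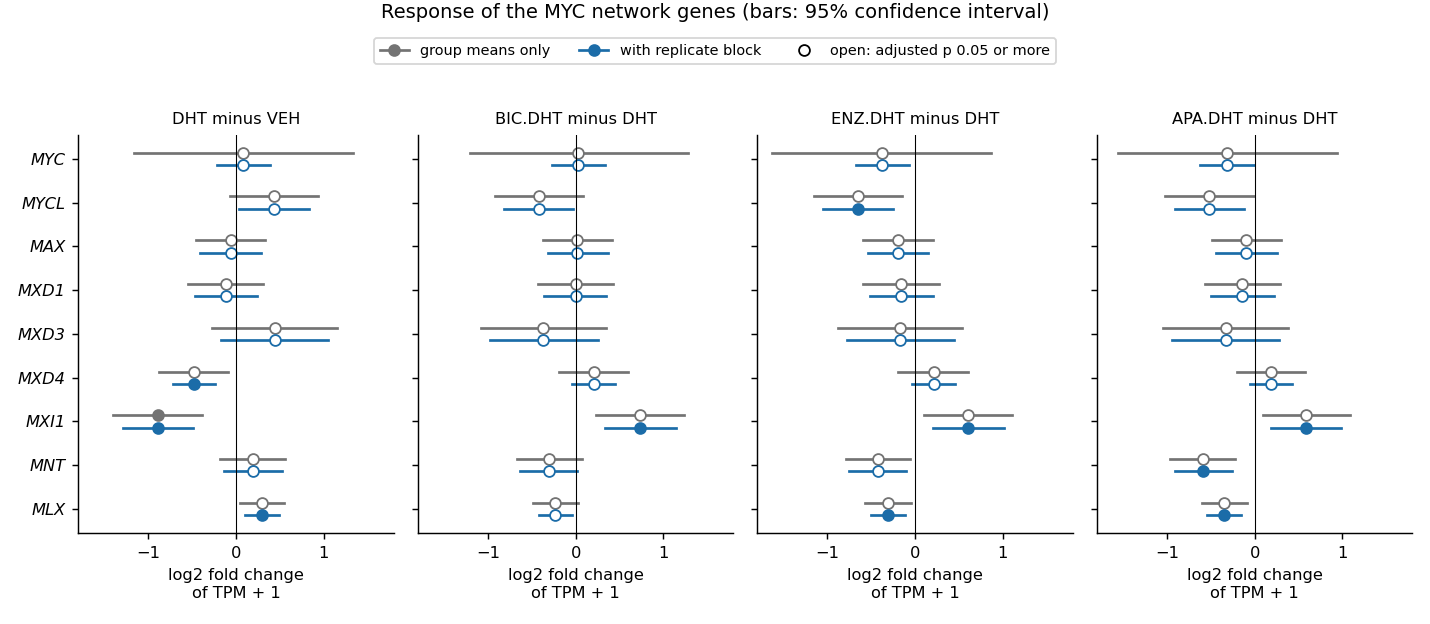
Log2 fold change of TPM + 1 (horizontal axes) of the 9 tested genes for DHT minus VEH and for each antagonist with DHT minus DHT, from the fit of group means (grey) and with the replicate block (blue), with bars for 95% confidence intervals and filled points where the adjusted p was under 0.05. MXI1 is the one gene filled in grey, at -0.89 for DHT minus VEH, and the intervals of MYC narrow the most with the block.

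As a set, the members were called about as often as genes in general. In DHT against VEH 1 of 9 tested members was called, against 10.3% of all genes tested (6.64% called lower), and 3 of 9 with the block, against 27.4%. Replicates did not overlap for 5 of 9 members (MYCL, MNT and MLX higher, MXD4 and MXI1 lower), against 56.5% of all genes. The median change of the members was 0.08, beside -0.10 for all genes. In BIC.DHT against DHT no member was called, against 3.13% of genes (1.45% higher), and 1 was with the block, against 13.3%. In ENZ.DHT against DHT it was also 0, against 9.65% (4.74% higher), and 3 with the block (MXI1 higher, MLX and MYCL lower), against 29.2%. In APA.DHT against DHT it was 0, against 8.36% (4.25% higher), and 3 with the block (MXI1 higher, MLX and MNT lower), against 27.3%. At an unadjusted p under 0.05 in limma the members numbered 3 of 9 in DHT against VEH, against 25.1% of all genes, and 1, 4 and 4 of 9 in the 3 antagonist comparisons, against 15.1%, 26.3% and 24.7%. The member medians there were 0.00, -0.20 and -0.31, beside medians of 0.00, -0.01 and 0.00 for all genes. In these 3 comparisons the replicates did not overlap with those of DHT for 47.0%, 50.9% and 47.9% of all genes.

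Bicalutamide is a nonsteroidal antagonist of the earlier type, while enzalutamide and apalutamide are both diarylthiohydantoins that share most of their scaffold. All were given at the same 10 µM for the same 48 h, so that 3 pairs of compounds could be compared with DHT and 3 without. No member was called in any of these 6 comparisons, in limma with or without the block. Of all genes, 0.0842% at most were called in any of them (APA.VEH against BIC.VEH, with the block), and 0.012% at most without the block (also APA.VEH against BIC.VEH), with 0.00601% in ENZ.DHT against BIC.DHT, APA.DHT against ENZ.DHT and APA.VEH against ENZ.VEH. MYC was 0.41 lower in ENZ.DHT than in BIC.DHT (limma with replicate block, 95% interval -0.71 to -0.11, adjusted p = 0.27). It was 0.35 lower in APA.DHT than in BIC.DHT (same fit, -0.65 to -0.04, adjusted p = 0.44). Without the block, the lowest adjusted p of any member in ENZ.DHT against BIC.DHT was 0.93 (limma). The intervals that follow are also from the fit with the block. Between APA.DHT and ENZ.DHT the MYC difference was 0.07, with an interval of -0.24 to 0.37. For MXI1 the same 3 differences were -0.14 (-0.54 to 0.27), -0.15 (-0.55 to 0.26) and -0.01 (-0.41 to 0.39). For MYC, the intervals of ENZ.DHT and APA.DHT against BIC.DHT include differences of the size seen against DHT. For MXI1, all 3 intervals stop short of the size of its rises against DHT, 0.59 to 0.74, but the lowest bound is -0.55. The missing calls therefore do not show that the compounds acted alike.

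Without DHT, the antagonists gave no detectable change of a member. Over the 3 antagonists the 27 member differences from VEH lay between -0.27 and 0.26, none was called, and none had an unadjusted p under 0.05 in limma, against 0.836% to 1.17% of all genes. Of all genes, 0.018% at most were called in these comparisons, in BIC.VEH with the block, and 0.00601% in APA.VEH without it. DHT added to an antagonist gave differences between -0.43 (MAX with ENZ) and 0.39, with no call (0.024% of all genes at most, in APA with the block, and 0.00601% in ENZ and in APA without it) and 1 unadjusted p under 0.05 among 27, against 1.41% to 3.25% of all genes.

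Because TPM is per length, the competitors can be summed. MXD1, MXD3, MXD4, MXI1 and MNT together held 189 and 162 TPM in VEH and 134 and 129 TPM in DHT. The DHT libraries had the lowest sums, but the other 14 reached down to 136 TPM in APA.DHT replicate 1. Within that sum MXI1 made up 18.7% and 21.2% in DHT, against 22.7% to 35.3% in the other libraries, and MXD4 made up 45.3% to 57.5% over all 16. MYC relative to the sum was between 0.262 and 0.465 in the replicate 1 libraries and between 0.628 and 1.03 in the replicate 2 libraries. These are transcripts, and protein levels were not measured.

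**Figure D4:**
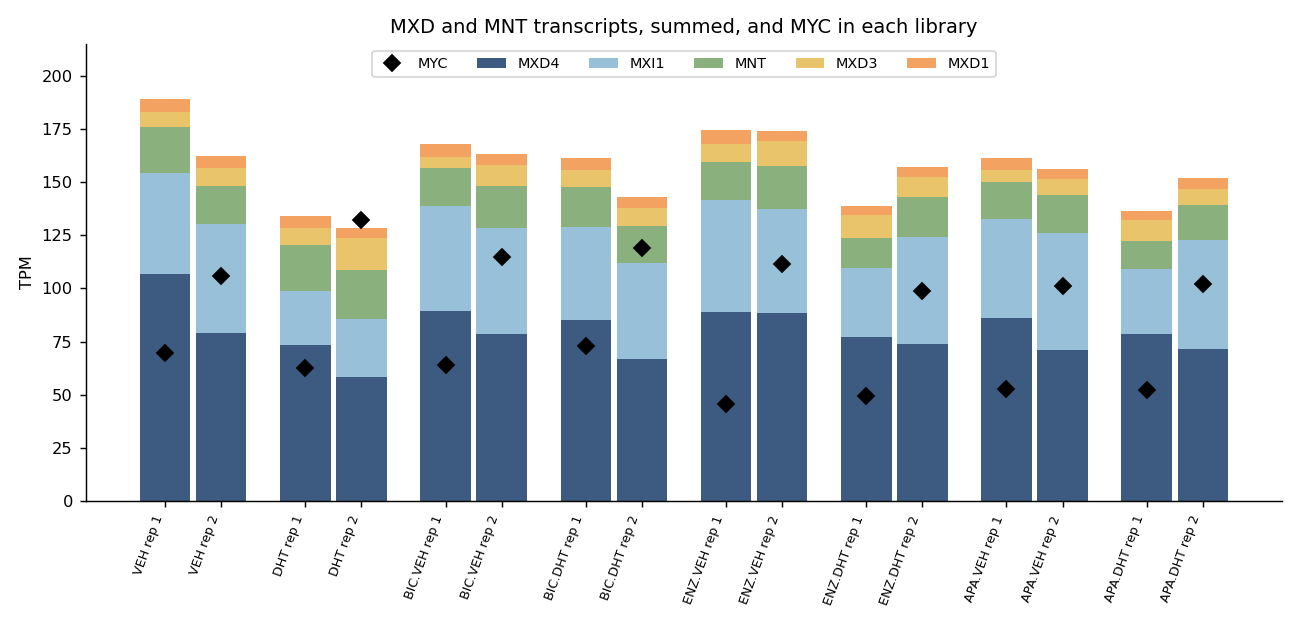
Stacked TPM of MXD4, MXI1, MNT, MXD3 and MXD1 (bars, from 0) and TPM of MYC (diamonds) in each of the 16 libraries. The bars of DHT, at 134 and 129 TPM, are the lowest, and MYC exceeds the bar in DHT replicate 2 alone.

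The E-box CACGTG, to which MYC-MAX, MXD-MAX and MLX dimers bind, was searched in the promoter windows of RefSeq (GRCh38.p14), 250 bases before to 50 after each annotated start. The search covered the 9 members other than MYC, which was left out. Their windows numbered 12, since MXI1 has 3 and MAX more than 1. The motif reads the same on both strands. It was found in 3 windows, those of MXD4, MNT and MLX, and in 7.26% of the 35116 windows of all genes. The hexamer of the androgen receptor (AGAACA or TGTTCT, both strands) was found, among these 9, before the start of MXI1 alone, in the first of its 3 windows, and in 12.4% of the upstream parts of all windows. The upstream 250 bases of these 4 genes are shown because they are genes with a called change and hold one of the motifs, which is in capitals. A match is a description of the letters and no evidence of binding.
MXI1 (chr10:110207355-110207604, plus strand, hexamer 182 bases before the start): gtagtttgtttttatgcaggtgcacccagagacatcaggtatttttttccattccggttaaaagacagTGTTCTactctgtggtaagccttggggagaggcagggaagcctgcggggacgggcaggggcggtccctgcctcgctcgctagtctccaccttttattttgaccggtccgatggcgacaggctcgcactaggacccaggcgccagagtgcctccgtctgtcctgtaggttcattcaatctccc
MXD4 (chr4:2262110-2262359, minus strand, E-box 238 bases before the start): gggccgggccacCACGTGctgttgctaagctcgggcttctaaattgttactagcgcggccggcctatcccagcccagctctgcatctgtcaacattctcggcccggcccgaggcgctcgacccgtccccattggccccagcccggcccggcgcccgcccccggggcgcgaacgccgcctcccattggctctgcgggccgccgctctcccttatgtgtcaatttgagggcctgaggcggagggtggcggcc
MNT (chr17:2401061-2401310, minus strand, E-box 193 bases before the start): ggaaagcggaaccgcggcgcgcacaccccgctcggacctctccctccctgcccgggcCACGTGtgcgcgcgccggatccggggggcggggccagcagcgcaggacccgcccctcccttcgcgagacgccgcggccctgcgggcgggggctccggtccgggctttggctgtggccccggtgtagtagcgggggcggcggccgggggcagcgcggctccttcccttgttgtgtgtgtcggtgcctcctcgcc
MLX (chr17:42566850-42567099, plus strand, E-box 50 bases before the start): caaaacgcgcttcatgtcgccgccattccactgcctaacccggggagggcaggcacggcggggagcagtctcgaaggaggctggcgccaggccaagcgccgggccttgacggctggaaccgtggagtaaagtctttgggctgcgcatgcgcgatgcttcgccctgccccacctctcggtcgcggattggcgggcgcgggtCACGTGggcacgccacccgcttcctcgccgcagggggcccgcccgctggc

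The wider network was followed in a list of 29 genes, the further MAX and MLX partners, co-activators, co-repressors, regulators of MYC protein turnover and noncoding neighbours, of which 27 were tested and 1 (USP36) was not analysed here. None was called in DHT against VEH without the block, against 10.3% of all genes, at a median change of -0.04 beside -0.10 for all genes. With the block 7 of 27 were called, near the 27.4% of all genes called in that fit. Among these 7, AURKA and CIP2A, which stabilise MYC protein, and the helicases RUVBL1 and RUVBL2 were higher. The acetyltransferase KAT5, the co-repressor SIN3B and MLXIPL were lower.

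MLXIPL, which encodes the glucose-responsive MLX partner ChREBP, was the 1 gene of the 27 called with an antagonist without the block, in ENZ.DHT and APA.DHT against DHT. In these comparisons 9.65% and 8.36% of all genes were called, so the list had no more calls than genes in general, and MLXIPL was picked out after its values were seen. It was at 5.60 and 4.11 TPM in VEH and at 1.79 and 2.87 TPM in DHT. With an antagonist and DHT it was at 5.70 and 5.08 TPM in BIC.DHT, 6.66 and 4.38 TPM in ENZ.DHT and 6.22 and 4.97 TPM in APA.DHT. The DHT libraries were the lowest of all 16. The rise against DHT was 0.97 in ENZ.DHT (SE 0.25, limma adjusted p = 0.037) and 1.00 in APA.DHT (adjusted p = 0.034), while that of 0.96 in BIC.DHT was called only with the block (0.074, and 0.018 with it).

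Of 36 tested genes that MYC is known to induce, 2 were called in DHT against VEH without the block, both higher, against 3.63% of all genes called higher. Positive differences numbered 33 of 36, called or not, against 39.5% of all genes, with a median of 0.48 beside -0.10. SRM, the spermidine synthase, stood at 118 and 115 TPM in VEH and at 188 and 222 TPM in DHT. RRP9, a factor of ribosomal RNA processing, stood at 26.5 and 23.4 TPM in VEH and at 37.9 and 41.9 TPM in DHT. The DHT libraries lay above both VEH libraries in each. The rises were 0.81 for SRM and 0.66 for RRP9 (limma, adjusted p = 0.0084 and 0.0071).

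With the block 24 of the 36 were called higher and none lower, against 10.6% of all genes called higher. The largest rises were those of E2F1 (1.53), CDC25A (1.41) and LDHA (1.21), which act in cell cycle entry and in lactate production (limma with replicate block, adjusted p = 0.00013, 8e-05 and 1.6e-05). The median was 0.38 between the libraries of replicate 1, in which MYC was 0.15 lower in DHT, and 0.55 between those of replicate 2, in which MYC was 0.32 higher. The list's positive differences numbered 30 of 36 and 34 of 36 in these 2 replicates. No median or share over all genes is given for single replicates, so these values have no background beside them.

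With an antagonist in addition to DHT the same list was lower than in DHT alone, with medians of -0.31 for BIC, -0.61 for ENZ and -0.56 for APA beside medians of 0.00, -0.01 and 0.00 for all genes. These comparisons and the previous one share the DHT libraries. Without the block 1, 4 and 3 of 36 were called lower, against 1.68%, 4.91% and 4.11% of all genes. With it 12, 30 and 29 were called lower, against 6.82%, 15.9% and 14.1%, and none higher. SRM and RRP9 fell in both ENZ.DHT (by 1.07 and by 0.61) and APA.DHT (by 1.00 and by 0.70), with an adjusted p of 0.0021, 0.012, 0.0035 and 0.0061 (limma).

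Between replicates the list moved in the direction of MYC. In replicate 2 against replicate 1, 33 of the 36 genes were called higher and none lower, against 23.4% of all genes called higher, with a median of 0.44 beside 0.03 for all genes (limma with replicate block). The proliferation markers MKI67, MCM2, TOP2A, PCNA and CCNB1 differed in the same directions. All 5 had a positive DHT difference, against 39.5% of all genes, with a median of 1.08 beside -0.10 for all genes. None was called without the block, against 3.63% of all genes called higher, and 4 were with it, against 10.6%. All 5 differences from DHT were negative with each antagonist (medians -0.48, -1.38 and -1.14). None of the marker differences was called without the block, and 1, 5 and 5 were called lower with it, against 6.82%, 15.9% and 14.1% of all genes. All 5 were called higher in replicate 2 (median 1.34). Their summed level ranged from 71.3 to 221 TPM over the replicate 1 libraries and from 196 to 440 TPM over those of replicate 2, with DHT the highest in each. Their part in the values of MYC and its targets was not tested.

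**Figure D5:**
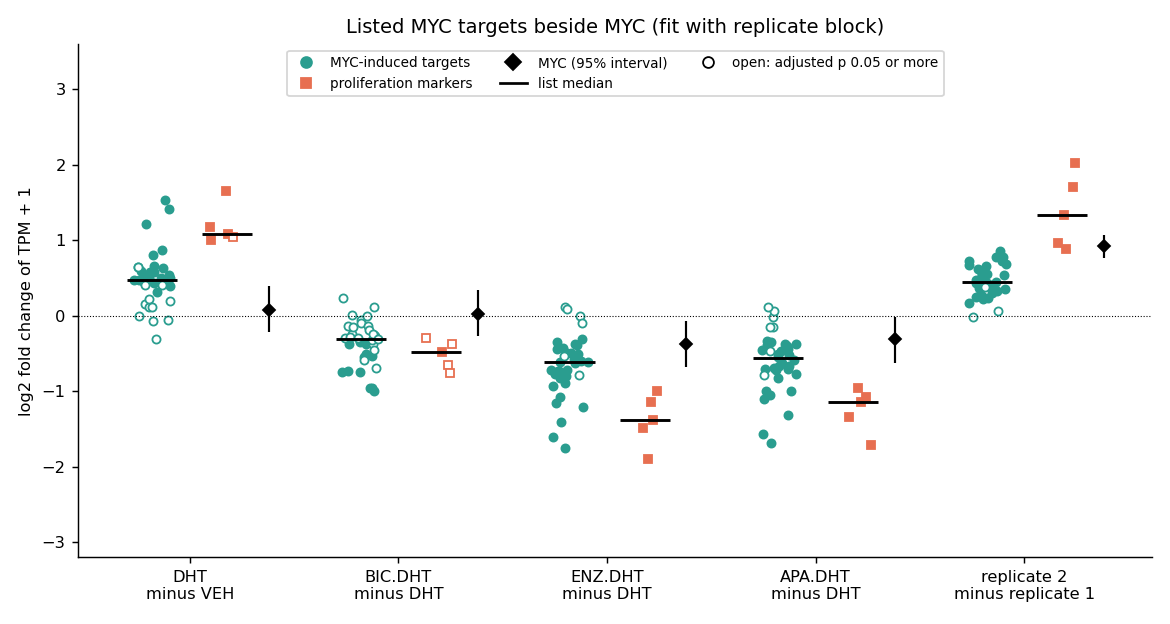
Log2 fold change of TPM + 1 (vertical axis) of the 36 MYC-induced targets (circles), the 5 proliferation markers (squares) and MYC (diamond with 95% interval) in 5 comparisons from the fit with the replicate block, with filled points where the adjusted p was under 0.05 and bars at list medians. The MYC-induced targets have medians of 0.48 in DHT minus VEH and 0.44 between replicates, while MYC is at 0.08 in the first and at 0.92 in the second.

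Of the 5 genes listed as repressed by MYC, NDRG1 alone was called in DHT against VEH, and it rose, which 3.63% of all genes did. NDRG1, a stress-responsive gene, measured 78.9 and 50.8 TPM in VEH and 200 and 174 TPM in DHT, with no overlap (1.54, SE 0.30, limma adjusted p = 0.0086). It fell with each antagonist, by 1.62 in BIC.DHT, by 1.77 in ENZ.DHT and by 1.75 in APA.DHT (limma, adjusted p = 0.017, 0.0050 and 0.0054). With the block CDKN1A, the cell cycle inhibitor p21, and NDRG2 were also called, both lower with DHT, against 16.8% of all genes called lower in that fit. CDKN1A fell by 1.01 (adjusted p = 0.0022, limma with replicate block). The list median was -0.40 in DHT against VEH. Between replicates 4 of the 5 were called lower in replicate 2 (median -0.42, limma with replicate block), against 16.9% of all genes.

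The targets of MondoA with MLX were represented by TXNIP and ARRDC4, both arrestin-like inhibitors of glucose uptake. TXNIP was at 184 TPM in each VEH library and at 89.5 and 86.8 TPM in DHT, lower by 1.05 (SE 0.17, limma adjusted p = 0.0032), and the DHT libraries were the lowest of all 16. It was at 148 and 144 TPM in BIC.DHT, 117 and 157 TPM in ENZ.DHT and 130 and 192 TPM in APA.DHT. The rises against DHT were 0.73, 0.61 and 0.83 (limma, adjusted p = 0.048, 0.048 and 0.014). As for MXI1, replicate 1 of ENZ.DHT and APA.DHT lay nearer to DHT than replicate 2 did. ARRDC4 was not called (-0.28, limma adjusted p = 0.33).

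Across the 8 group means, the genes most like MYC were TMEM69 (r = 0.975), QARS1 (0.965), CDK4 (0.961), PDK3 (0.960) and NT5DC2 (0.956), among 11063 other tested genes with a mean of at least 5 TPM. The most opposite were SLC38A6 (-0.978), EXOSC1 (-0.960), GEMIN8 (-0.945), LERFS (-0.938) and ZFAND2A (-0.931). These are descriptions over 8 points that share their serum and culture, and the MYC means they follow differ by less than the replicates of a group. Over the 16 single libraries GEMIN8, for one, had r = -0.323 and LERFS had r = -0.136. Of the 7 other members with a mean of at least 5 TPM, which leaves out MYCL and MYCN, MLX had the highest correlation with MYC over the group means (0.657) and MXI1 the lowest (-0.31). Both signs reversed over the 16 single libraries, to -0.179 for MLX and 0.215 for MXI1.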

How the data were processed

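Polyadenylated, stranded RNA libraries of LNCaP cells were sequenced as 125 bp paired reads, about 40 M pairs each per the labels. Per the submitters' processing notes, the authors used FastQC 0.11.9, Trim Galore 0.6.5, STAR 2.7.2b and RSEM 1.3.3 with GRCh38. The deposited values are TPM per gene symbol and library, made by the authors from RSEM estimates, so reads shared by similar genes were divided by a model. TPM scales each library to a nearly constant total, here 976190 to 983114, and keeps no read depth. The depth behind each value is therefore unknown, and precision was judged from the 2 replicates per group. Columns were assigned through the labels, and 0 columns belonged to other samples.

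Values were analysed as log2(TPM + 1) for the 16636 genes at 1 TPM or more in at least 2 libraries. limma 3.58.1 (R 4.3.3, trend option) was fitted with 8 group means to all 16 libraries, with no covariate. The paper states no covariate for these libraries, but it also reports no per-gene model of them. Adjusted p-values (Benjamini-Hochberg, threshold 0.05) were taken within each contrast. The alternative with the replicate number as a block was given because the deviations of same-numbered libraries correlated in all 28 pairs of groups (0.204 to 0.635, median 0.427). The replicate numbers come from the titles. Other alternatives were median-ratio scaling, a pseudocount of 0.1, no filter, removal of the 37 mitochondrial genes, only the groups compared, and leaving out each library. The fit without the block was tested for DHT against VEH on simulated data with independent noise in each library. That simulation covered neither the block nor deviations shared by libraries of the same number. Mitochondrial genes held 14.7% to 22.3% of TPM, and both extremes were DHT libraries (replicate 2 and replicate 1). Scaling factors ran from 0.922 in APA.DHT replicate 1 to 1.102 in ENZ.VEH replicate 1. Those of DHT replicate 1 (0.924) and ENZ.DHT replicate 1 (0.928) were the next lowest.

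The members and gene lists were chosen with earlier results of these data known, and the lists were written from general knowledge. All members were named, together with up to 3 called genes in each direction per list in DHT against VEH and, except where another choice is stated, no others beyond examples of a count. The 5 genes most like and most opposite to MYC were taken from tested genes with a mean of 5 TPM or more. Besides MKI67 and its companions, the other marker lists were the luminal list (6 genes, summed 2290 to 7250 TPM) and markers of other cell types (11 genes, 4 tested, summed 16.9 to 36.1 TPM, mostly COL1A1 at 11.4 to 32.6). Figures were drawn with matplotlib 3.10.9.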

Additional observations from a re-analysis of the deposited data

How the results depend on the processing

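Of the called members, counted per comparison, DHT against VEH gave 1 as reported, 3 with the replicate block, 2 with median-ratio scaling, 0 without the filter, 0 when only the groups compared were fitted, and 0 to 1 when 1 library was left out. BIC.DHT against DHT gave 0, and 1 with the block. ENZ.DHT against DHT gave 0, 3 with the block and 0 to 1 with 1 library left out. APA.DHT against DHT gave 0, 3 with the block, 1 with median-ratio scaling, 1 without mitochondrial genes and 0 to 1 with 1 library left out. The block changed no other call of a member. Over 22 alternatives per value, no called member value changed sign. Among 3762 recomputed member differences, 184 changed sign with neither value called, 35 of them by 1 SE or more. With 2 replicates per group and no read counts, small changes of MYC cannot be detected from the group means alone.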

Other observations

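Within the wider network list, regulators of MYC protein turnover also differed between replicates. CIP2A was higher in replicate 2 by 1.18, AURKA by 1.16 and SKP2, a ubiquitin ligase subunit that acts on MYC, by 0.76 (limma with replicate block, adjusted p = 5.6e-06, 1.4e-05 and 0.00011). In all, 10 of 27 tested genes of the list were called higher in replicate 2 and 4 lower, at a median of 0.05 beside 0.03 for all genes and 40.2% of all genes called. The same 3 genes, named for their replicate difference, were called lower in ENZ.DHT than in DHT with the block, as were 15.9% of all genes. CIP2A fell by 1.12, AURKA by 1.56 and SKP2 by 0.56 (limma with replicate block, adjusted p = 0.0006, 0.00026 and 0.036).

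PVT1, the noncoding neighbour of MYC, lay between 39.0 and 87.1 TPM and was called neither with DHT nor between replicates. Over the 16 single libraries, in place of the 8 group means, the genes most like MYC were WDR54 (r = 0.981), PRMT1, HMGB1P6, HMGB1 and CCDC138 (0.970), and the most opposite were AP003419.1 (-0.979), PPIC, HTATIP2, DHRS1 and CLIC1 (-0.946). HMGB1P6 is a processed pseudogene of HMGB1, so the split of reads between them is uncertain.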
